A study of Mus musculus with 9 samples.

Results

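The glutamate receptor genes and the genes of their auxiliary subunits were examined as 1 group in mouse brain after intracerebral hemorrhage (ICH). The 37 members were chosen by gene symbol and by no cutoff on a measured value, although earlier results of these data were known. They were 4 AMPA receptor subunits, 5 kainate subunits, 7 NMDA subunits, 1 delta receptor, 7 metabotropic receptors, 6 transmembrane AMPA receptor regulatory proteins (TARPs), 2 cornichons, 3 Shisa proteins and 2 Neto proteins. All 37 were among the 38621 genes of the expression table, and 36 of them passed the filter on low values that 29025 genes passed. Male C57BL/6 mice gave 3 samples in each of 3 groups. The sham mice were labelled untreated, whereas the methods of the study give them a saline injection. In the ICH mice, autologous whole blood was injected stereotaxically into the brain. The feb mice were given febuxostat, an oral inhibitor of xanthine oxidase, by gavage before the same blood injection. No group received febuxostat without ICH. The tissue was labelled brain, with neither the region nor the time after the injection named for these samples, and blood injection models the hematoma without the rupture of a vessel.

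Glutamate is the main excitatory transmitter of the brain. AMPA, kainate and NMDA receptors are tetrameric cation channels that open when glutamate binds, whereas metabotropic receptors act through G proteins and tune release and excitability. TARPs, cornichons and Shisa proteins travel with AMPA receptors and set their number and kinetics at the synapse, and Neto proteins do the same mainly for kainate receptors. Excess glutamate with calcium entry through NMDA receptors is a known route of neuronal injury after stroke and hemorrhage.

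Values are given as RPKM, reads per kilobase of exon scaled to the counted reads of the library, so that genes of different length can be compared. The libraries held 23065757 to 29538009 counted reads. Where values are given for each mouse, they stand in the order of the mouse numbers 1, 2 and 3 of the group. Fitted differences are log2 fold changes on the log2(RPKM + 0.1) scale from limma. A gene was called when it had an unadjusted p under 0.05 and a fold change over 2, the criteria of the study. The study applied them to edgeR results, so the genes called here need not be those it reported. Nothing in the labels says how the mice of a group were sampled beyond their number, so p-values measure the spread between these samples, which may be technical. All 10 neuron, 10 astrocyte and 9 oligodendrocyte markers passed the filter. Marker genes of brain regions differed between samples of the same group. The summed RPKM of 10 striatal markers was 114, 673 and 250.3 for sham, 288, 524 and 590.0 for ICH and 451, 228 and 433 for feb. The sum of 10 markers of cortical excitatory neurons was 69.3, 47.5 and 36.3 for sham, 98.6, 154 and 87.3 for ICH and 68.4, 86.3 and 86.8 for feb, and the ICH range lay above the sham range. The 8 choroid plexus markers summed to 1035, 365 and 842 for sham, 836, 967 and 458 for ICH and 30.6, 56.1 and 88.4 for feb. The sham mice also differed from each other across the members. Sham mouse 2 had the highest value of the sham group for 27 of the 37 members and sham mouse 1 the lowest for 25. Of 10 cerebellar markers, 7 had their highest value of all 9 mice in sham mouse 1 and the other 3 in feb mouse 1. Calb1, one of these 3, was lowest in sham mouse 1, at 6.70 RPKM. The 10 markers summed to 37.5, 29.1 and 26.1 for sham, 25.2, 26.9 and 26.9 for ICH and 36.5, 25.2 and 27.2 for feb. The granule cell genes Gabra6, Cbln3 and Fat2 had RPKM 0.748, 1.63 and 0.979 in sham mouse 1 and at most 0.0918 in the other mice. The part of cerebellar tissue in the member values was not tested, and results without sham mouse 1 stand beside the counts. The 9 oligodendrocyte markers summed to 696 to 1025 for sham, 578 to 973 for ICH and 533 to 869 for feb, and the 6 precursor markers to 54.6 to 67.4, 47.9 to 59.7 and 43.1 to 56.9. At an unadjusted p under 0.05, 2 oligodendrocyte markers and 1 precursor marker were lower in feb than in sham mice, and none of either list differed in the other comparisons. In tissue samples, fewer cells of a type and less RNA per cell cannot be told apart.

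The comparison of ICH with sham mice asks how expression differed after the hemorrhage. The summed RPKM of the 37 members was 395, 589 and 465 for sham, 595, 620.3 and 599.6 for ICH and 539.7, 501 and 604 for feb, so that the ICH values lay above all sham values and close to each other. No member was called, whereas 2.53% of all genes tested were. Voom on the whole reads behind the RPKM called 1 member, Neto1, beside 579 of all genes called higher and 350 lower. At an unadjusted p under 0.05 without the fold criterion, 12 of the 36 members were higher and 0 lower, whereas 7.88% of all genes tested were higher and 4.42% lower. The adjusted p of these 12 was 0.345 or more, and 0.0241% of all genes had one under 0.05. The median log2 fold change of the 36 members was 0.26, and that of all genes was 0.08, with 24 members above 0. When samples were scaled to equal medians, all genes had a median of -0.02 and the members 0.15, and the count at p under 0.05 became 9 higher and 2 lower (Grin2d and Grin3a). Over all 29025 genes tested, 1185 were then higher and 2037 lower. The 12 genes were Gria2, Gria3, Grik3, Grik5, Grin2a, Grin2b, Cacng3, Cacng8, Cnih2, Cnih3, Neto1 and Neto2. Of the 36 members tested, 5 lay wholly higher in ICH than in sham mice, beside a background of 13.2% of genes. These 5 were Gria2, Gria3, Grik3, Grin2a and Cnih3, all among the 12. The count of members at p under 0.05 moved with single mice. It was 3 without sham mouse 1, 19 without sham mouse 2 and 5 without sham mouse 3. It was 7 with 1 lower without ICH mouse 1, 6 without ICH mouse 2, and 7 with 2 lower without ICH mouse 3. Over all 29025 genes tested, 2288 were higher with every mouse kept, and 1336, 3451 and 1178 without sham mouse 1, 2 and 3. Without ICH mouse 1, 2 or 3, respectively, the higher genes numbered 1465, 1492 and 2456 and the lower ones 1191, 764 and 1290. Of the 12 members, Gria3, Grin2a and Cnih3 had p under 0.05 whichever mouse was left out, and the other 9 had p of 0.05 or more without sham mouse 1. Cortical excitatory neuron markers were higher with the members (7 of 10 called). The 10 general neuron markers summed to 1678, 1104 and 1253 for sham and 1060.2, 1067 and 1159.7 for ICH. Of these 10, 2 (Rbfox3 and Syt1) were higher and 1 (Nefm) lower at an unadjusted p under 0.05, and Nefm was called. Nefl and Nefm had RPKM 414 and 337 in sham mouse 1, the highest of the 9 mice. The part of both marker lists in the result was not tested.

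**Figure D1:**
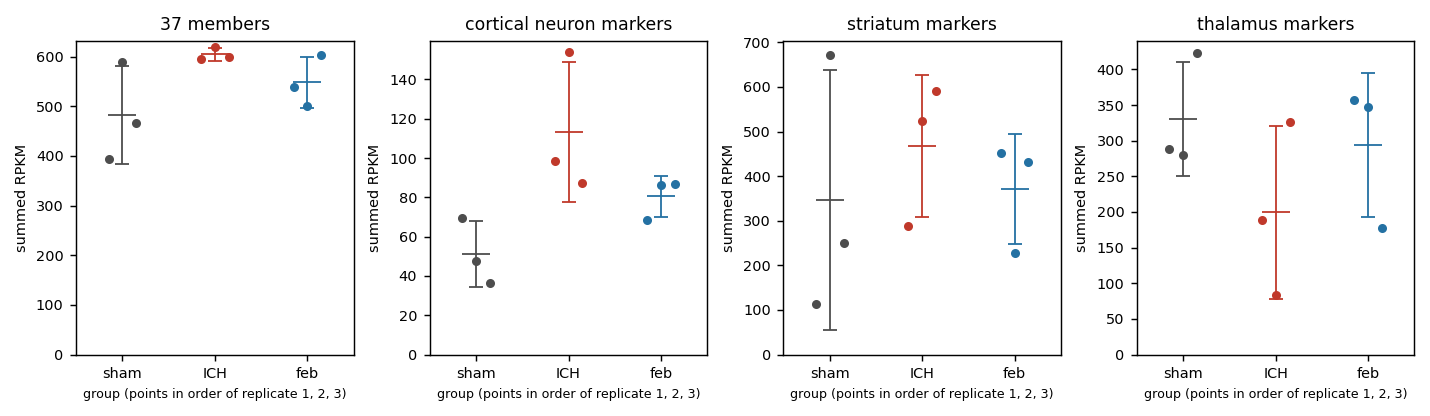
Summed RPKM per mouse of the 37 members and of 3 sets of 10 region markers (vertical axes, each from 0), by group (horizontal axis). Points are mice in the order of their numbers, and the line with its bar is the mean ± SD of 3 mice. The member sums of the ICH mice, from 595.5 to 620.3, lie above the 3 sham sums, and sham mouse 2 is highest in both the member and the striatal sums of its group.

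The comparison of feb with ICH mice asks how expression differed when febuxostat preceded the hemorrhage. The member sums overlapped, at 548 ± 52.2 against 605 ± 13.3 (SD, n = 3). No member was called by limma or by voom, beside 2.43% of all genes by limma, and 424 genes called higher and 378 lower by voom. At an unadjusted p under 0.05, 5 of the 36 members were lower and 0 higher, where 6.16% of all genes were lower and 4.9% higher. The 5 genes were Grik3, Grm3, Cacng3, Cnih3 and Neto2, and their adjusted p was 0.309 or more, beside 0.00689% of all genes under 0.05. Feb values lay wholly under ICH values in 8 members, the 5 and Gria3, Grin2b and Grin3b, beside a background of 10.1% of genes. The median log2 fold change was -0.14 over the members and -0.01 over all genes, with 25 members under 0. Of the 5, Grm3 alone had p under 0.05 whichever mouse was left out. The count of 5 became 8 when the sham mice were left out of the fit, 3 without ICH mouse 1 or without feb mouse 3, and 8 without ICH mouse 2 (6 lower and 2 higher). With samples scaled to equal medians, 6 were lower and 1 higher (Grik4). Over all 29025 genes tested, 1789 were lower in the main fit and 1694 with the sham mice left out. The lower genes numbered 1387 without ICH mouse 1, 1505 without feb mouse 3 and 1201 without ICH mouse 2 (946 higher). With equal medians, 1574 of all genes were lower and 1317 higher. Choroid plexus markers were called lower in 8 of 8 and blood markers in 4 of 6 tested, and 4 of 8 microglial and 3 of 7 endothelial markers were lower at an unadjusted p under 0.05. The 7 blood markers summed to 124, 28.6 and 27.0 for ICH and 17.5, 21.9 and 21.3 for feb. The part of these markers in the member differences was not tested.

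Feb mice were also set against sham mice. The member median was 0.07 and that of all genes 0.05, with 21 of 36 members above 0. No member was called (background 2.2%), and 2 members, Grik4 and Grin2a, were higher at an unadjusted p under 0.05 with 0 lower, where 5.63% of all genes were higher and 2.9% lower. The lowest adjusted p of a member was 0.565, beside 0.00345% of all genes under 0.05. Groups lay wholly higher in 3 members (Grik4, Grin2a and Shisa6; background 7.78%) and wholly lower in 2 (Cacng7 and Grin3b; background 4.9%). The member count moved most without sham mouse 2: without it 14 members were higher at p under 0.05, against 0 without sham mouse 3 or feb mouse 3, 1 without feb mouse 1 and 5 without feb mouse 2. Over all 29025 genes tested, 1635 were higher in the main fit, 2587 without sham mouse 2 and 985 without sham mouse 3. Without feb mouse 1, 2 or 3, respectively, the higher genes numbered 1722, 2559 and 708. Without sham mouse 2, Neto1 was called at 1.06 on the log2 scale, beside 884 of all genes called higher and 266 lower. Choroid plexus markers were called in 7 of 8 and blood markers in 3 of 6 tested, all lower in feb mice, and their part was not tested. Scaling to equal medians moved the median of all genes to -0.05, and that of the members likewise to -0.05, with Grik4 at 0.56.

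**Figure D2:**
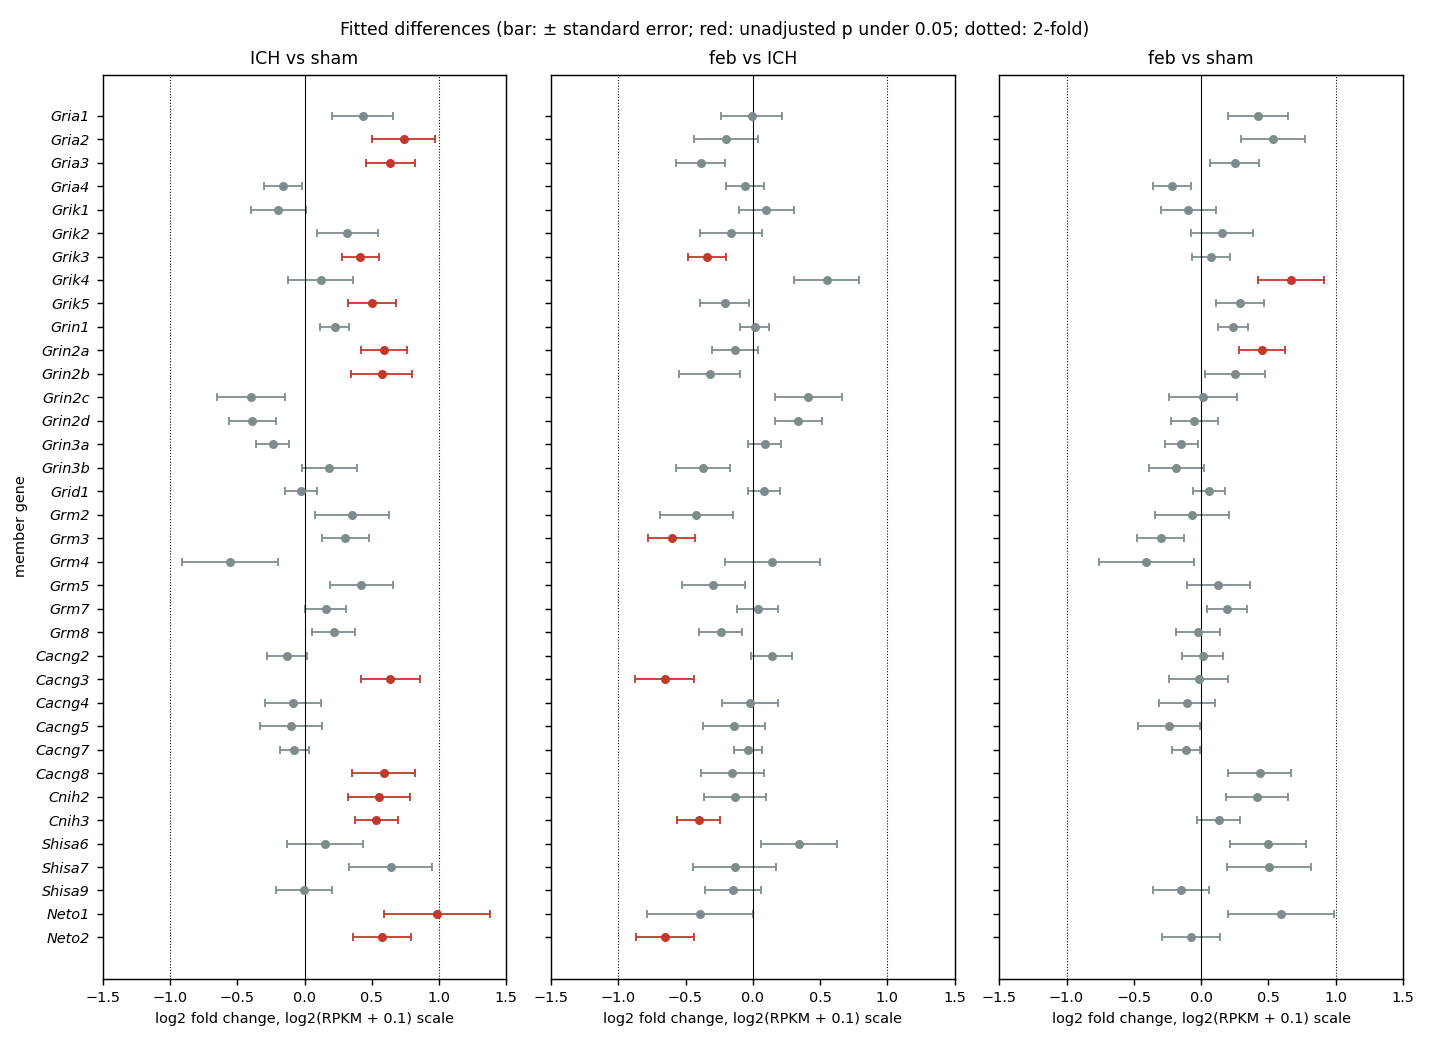
Fitted log2 fold change of the 36 members (rows) on the log2(RPKM + 0.1) scale in the 3 comparisons (panels), with bars of ± 1 standard error, dotted lines at a 2-fold difference, and red for an unadjusted p under 0.05. No red point reaches a dotted line. The red points are 12 to the right in ICH against sham, 5 to the left in feb against ICH, and 2 to the right in feb against sham.

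The sequences before the start sites of 4 members are shown because these genes had feb values wholly under their ICH values and an unadjusted p under 0.05. Each is the 250 bases before the transcription start of the RefSeq gene (GRCm38.p6), 5′ to 3′ on the gene's own strand, with GC boxes (GGGCGG on either strand, the letters bound by Sp factors) in capitals. Cnih3 lies at chr1:181352378-181352627 on the plus strand, Grik3 at chr4:125490446-125490695 on the plus strand, Grm3 at chr5:9725353-9725602 on the minus strand, and Neto2 at chr8:85700925-85701174 on the minus strand. None of these 4 windows overlapped an exon of its own gene in the deposited table. The window of the fifth gene of that kind, Cacng3, did overlap one and is not printed.
Cnih3: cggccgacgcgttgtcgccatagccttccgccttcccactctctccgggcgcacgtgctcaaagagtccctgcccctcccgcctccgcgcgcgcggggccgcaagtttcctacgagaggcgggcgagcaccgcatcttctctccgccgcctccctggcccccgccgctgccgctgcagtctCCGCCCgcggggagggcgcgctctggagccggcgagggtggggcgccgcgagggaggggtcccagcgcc
Grik3: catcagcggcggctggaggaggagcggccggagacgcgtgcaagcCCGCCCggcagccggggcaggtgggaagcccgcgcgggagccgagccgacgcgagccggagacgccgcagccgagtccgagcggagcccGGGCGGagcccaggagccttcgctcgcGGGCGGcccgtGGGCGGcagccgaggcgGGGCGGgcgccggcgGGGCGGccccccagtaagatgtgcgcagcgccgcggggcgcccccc
Grm3: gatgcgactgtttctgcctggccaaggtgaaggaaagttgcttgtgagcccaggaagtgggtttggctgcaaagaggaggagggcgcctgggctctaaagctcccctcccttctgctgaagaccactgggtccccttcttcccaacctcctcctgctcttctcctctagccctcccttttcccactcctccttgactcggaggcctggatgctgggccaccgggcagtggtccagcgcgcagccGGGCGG
Neto2: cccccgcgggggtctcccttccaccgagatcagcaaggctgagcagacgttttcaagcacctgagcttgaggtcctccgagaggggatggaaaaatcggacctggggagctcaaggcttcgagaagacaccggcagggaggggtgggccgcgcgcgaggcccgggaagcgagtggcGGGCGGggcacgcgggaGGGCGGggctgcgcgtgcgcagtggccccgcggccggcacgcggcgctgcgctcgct

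Grik3 had 6 GC boxes and 42 CpG dinucleotides in its 250 bases, Cnih3 had 1 and 36, Neto2 had 2 and 30, and Grm3 had 1 and 8. RefSeq gives Neto2 a second window (chr8:85691010-85691259, minus strand), inside the gene, which held 0 GC boxes and 0 CpG, and the printed one adjoins the start of the gene in the deposited table. RefSeq promoters were matched by symbol for 24 of the 37 members, 29 windows in all. GC boxes were present in 15 of these 29 (51.7%), against 32.7% of 32851 windows of all genes, and the median CpG number was 12 against 6. The cAMP response element (TGACGTCA) was in 0 of the 29 against 1.55% of all, the NRF1 motif in 0 against 0.782%, the AP-1 motif (TGANTCA) in 3 (10.3%) against 6.75%, and TATAAA in 1 (3.45%) against 12.4%. These letters were searched on both strands. A match describes the sequence and is not a binding site, and some of the windows belong to the same gene.

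Among the 4 AMPA receptor subunits, which carry most fast excitatory transmission, the sum was 108, 159 and 129 for sham, 181, 193 and 163 for ICH and 161, 138 and 207 for feb, and the ICH range lay above the sham range. Gria1, encoding GluA1, was the most abundant member of all, with RPKM 53.6, 83.0 and 70.7 for sham, 87.1, 113 and 78.3 for ICH and 92.0, 70.7 and 117 for feb. Its sham and ICH ranges overlapped (log2 fold change 0.43, standard error 0.23, unadjusted p = 0.0902, adjusted p = 0.445). Gria2 encodes GluA2, the subunit that keeps calcium out of the channel. Its RPKM was 22.6, 40.8 and 27.8 for sham, 52.4, 49.0 and 46.3 for ICH and 40.4, 33.9 and 57.5 for feb. All 3 ICH values of Gria2 lay above all sham values (log2 fold change 0.74, standard error 0.24, unadjusted p = 0.0135, adjusted p = 0.347), and without sham mouse 1 the value was 0.54 with p at or over 0.05. Gria3 encodes GluA3 and spans chromosome X, 41400854 to 41678601, on the plus strand of GRCm38. For Gria3 the RPKM was 10.0, 15.9 and 11.1 for sham, 22.2, 16.6 and 18.3 for ICH and 13.1, 14.2 and 16.1 for feb, again without overlap between sham and ICH (log2 fold change 0.64, standard error 0.18, unadjusted p = 0.00716, adjusted p = 0.345). In the feb mice Gria3 lay wholly under the ICH mice and overlapped the sham mice, although the test did not reach 0.05 (log2 fold change -0.39, standard error 0.18, unadjusted p = 0.0633, adjusted p = 0.471). Gria4, encoding GluA4, ranged from 14.3 to 21.5 RPKM and overlapped in all 3 comparisons. The ratio of Gria2 to Gria4 was 1.05, 2.17 and 1.44 for sham, 2.70, 3.42 and 2.31 for ICH, and 2.59, 1.74 and 3.52 for feb. Gria2 thus outweighed Gria4 more in each ICH mouse than in any sham mouse, and the feb mice overlapped both groups. The ratio of Gria2 to Gria1 was 0.422, 0.492 and 0.393 for sham, 0.602, 0.433 and 0.592 for ICH and 0.439, 0.479 and 0.491 for feb. It overlapped in all 3 comparisons. So did the other ratios computed, Grin2b to Grin2a, Cnih2 to Cnih3, Neto1 to Neto2 and Cacng8 to Cacng2. Small noncoding genes on the same strand lie within exons of Gria2 and Gria3, and another shares 19 exon bases with Gria4. They cover at most 0.862% of the exon bases of these genes, and their reads may have been counted for both.

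**Figure D3:**
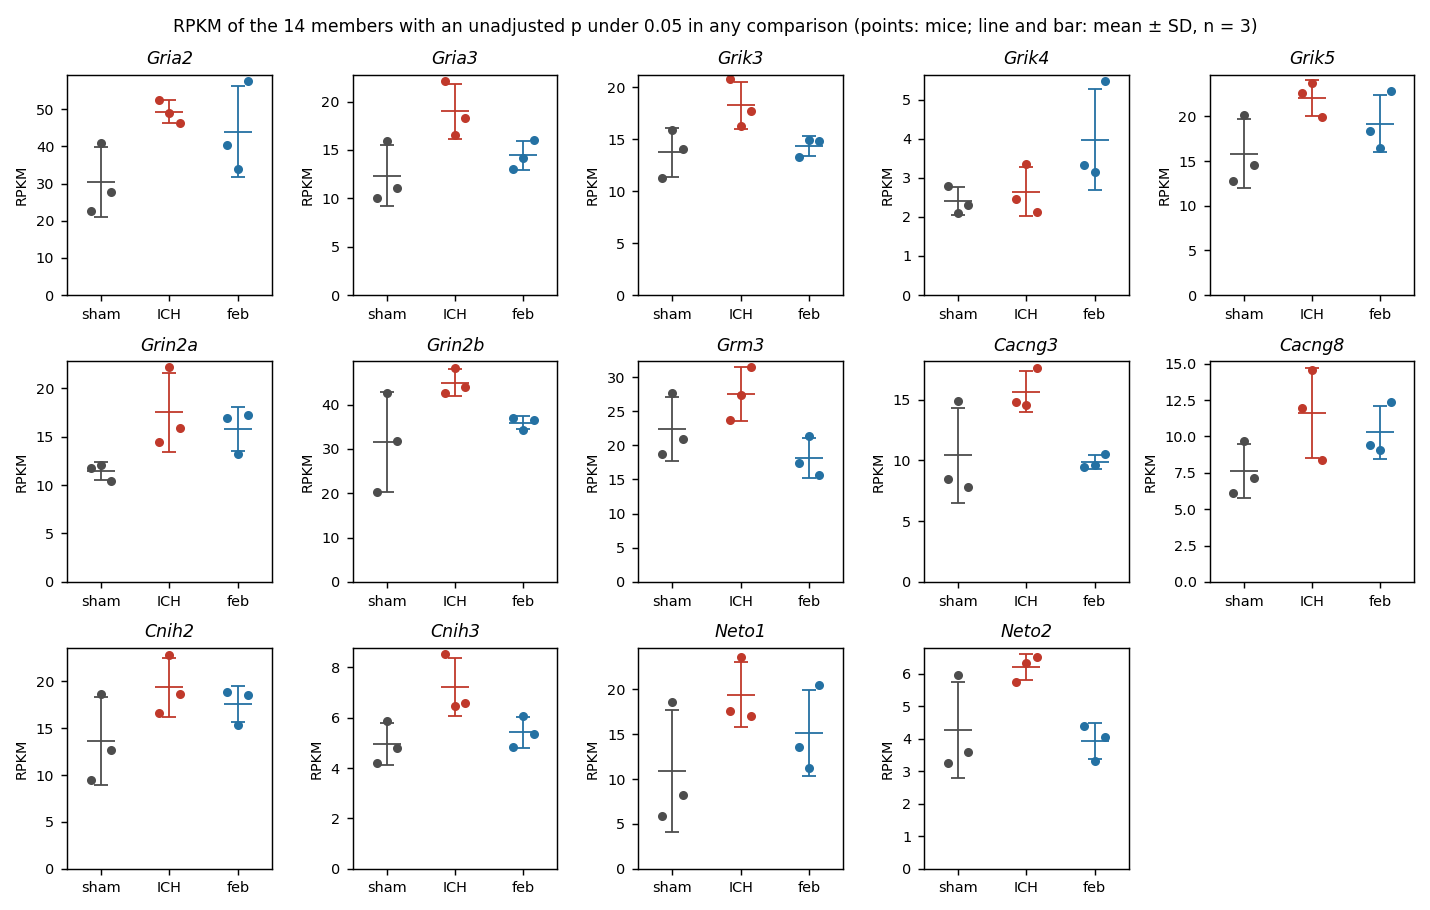
RPKM of the 14 members with an unadjusted p under 0.05 in any comparison (vertical axes from 0), by group (horizontal axis), with a point for each mouse and the mean ± SD of 3 mice as line and bar. Gria2, Gria3, Grik3, Grin2a and Cnih3 have all ICH points above all sham points, and Grik3, Grm3, Cacng3, Cnih3 and Neto2 have all feb points under all ICH points.

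The 5 kainate receptor subunits summed to 40.4, 62.8 and 48.2 for sham, 67.7, 63.1 and 61.1 for ICH and 53.6, 51.8 and 65.7 for feb. Sham mouse 2 reached the ICH range in this sum, which the other sham mice did not. Grik5 encodes GluK5, a high-affinity partner that needs another kainate subunit to form a channel, and it was the most abundant of the class. Its RPKM was 12.8, 20.2 and 14.5 for sham, 22.6, 23.8 and 19.9 for ICH and 18.3, 16.5 and 22.8 for feb. Sham mouse 2 lay just above the lowest ICH mouse, so the groups overlapped (log2 fold change 0.50, standard error 0.18, unadjusted p = 0.0219, adjusted p = 0.369). Grik3 encodes GluK3, which forms channels by itself. The RPKM of Grik3 was 11.3, 15.9 and 14.0 for sham, 20.7, 16.2 and 17.7 for ICH and 13.3, 14.9 and 14.8 for feb. Both the sham and the feb values lay wholly under the ICH values, with a log2 fold change of 0.41 for ICH over sham (standard error 0.14, unadjusted p = 0.0163, adjusted p = 0.355). For feb against ICH the value was -0.34 (standard error 0.14, unadjusted p = 0.0383, adjusted p = 0.426), with p under 0.05 in 3 of 9 fits with a mouse left out. ICH mouse 2 and sham mouse 2 differed by little, 16.2 against 15.9 RPKM.

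Grik4, encoding the other high-affinity subunit GluK4, was the least abundant kainate gene by the mean over all 9 mice, although Grik1 had the lower mean in the feb group. It had RPKM 2.79, 2.10 and 2.32 for sham, 2.45, 3.35 and 2.13 for ICH and 3.32, 3.14 and 5.47 for feb. Sham and ICH mice did not part, whereas all 3 feb mice lay above all sham mice (log2 fold change 0.67, standard error 0.24, unadjusted p = 0.0234, adjusted p = 0.565). Feb mouse 3 was far above feb mice 1 and 2, and without it the value was 0.42 with p over 0.05. Against ICH the feb values overlapped with those of ICH mouse 2 (log2 fold change 0.55, standard error 0.24, unadjusted p = 0.0515, adjusted p = 0.454). Grik4 took 6.19, 6.07 and 8.32% of the kainate sum in the feb mice, 3.62, 5.31 and 3.49% for ICH, and 6.91, 3.34 and 4.81% for sham. Grik1 and Grik2, encoding GluK1 and GluK2, ranged from 2.63 to 4.32 and from 10.2 to 20.3 RPKM and had an unadjusted p of 0.05 or more in all 3 comparisons. The share of Grik1 in the kainate sum was lower in every ICH mouse (5.97, 4.41 and 4.997%) than in every sham mouse (8.44, 6.87 and 7.35%).

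NMDA receptors, which need glycine or D-serine together with glutamate, were represented by 7 subunit genes with a sum of 82.6, 114 and 93.6 for sham, 114, 124 and 119.8 for ICH and 115, 103 and 116 for feb. Grin1 encodes the obligatory GluN1 subunit and had the highest mean of the class over all 9 mice, although Grin2b had the higher mean in the ICH group. Its RPKM was 35.1, 41.6 and 33.7 for sham, 41.1, 43.1 and 44.4 for ICH and 45.02, 37.8 and 47.5 for feb. Sham mouse 2 lay within the ICH range, and the difference was small (log2 fold change 0.22, standard error 0.11, unadjusted p = 0.0720, adjusted p = 0.428). Exons of an antisense gene, Grin1os, cover 13.5% of the exon bases of Grin1 on the other strand, and whether reads were counted by strand is not given in the sources used here. Grin2a encodes GluN2A, the glutamate-binding subunit of most mature synapses, on chromosome 16, 9567898 to 9995560, minus strand. Its RPKM was 11.8, 12.1 and 10.4 for sham, 14.5, 22.2 and 15.9 for ICH and 17.0, 13.2 and 17.2 for feb. The ICH and the feb values of Grin2a all lay above the sham values. The fit gave a log2 fold change of 0.59, standard error 0.17, unadjusted p = 0.00762, adjusted p = 0.345 for ICH over sham, and a log2 fold change of 0.46, standard error 0.17, unadjusted p = 0.0263, adjusted p = 0.565 for feb over sham. ICH mouse 2, at 22.2 RPKM, was the highest of the 9, and without it the ICH value against sham was 0.41.

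Grin2b, encoding GluN2B, the subunit that prevails early in life and in the forebrain, had RPKM 20.2, 42.7 and 31.7 for sham, 42.5, 48.3 and 44.1 for ICH and 36.9, 34.3 and 36.6 for feb. The sham mice spread widely, and sham mouse 2 reached the level of ICH mouse 1 (log2 fold change 0.57, standard error 0.22, unadjusted p = 0.0321, adjusted p = 0.387). Without sham mouse 1 the value was 0.29 (unadjusted p = 0.0599). The p was also 0.05 or more without sham mouse 3 or any 1 of the ICH mice. All 3 feb values lay under all ICH values (log2 fold change -0.32, standard error 0.22, unadjusted p = 0.188, adjusted p = 0.612). The Grin2b share of the NMDA sum was 37.4, 39.1 and 36.8% for ICH and 32.1, 33.3 and 31.6% for feb, which did not overlap, and 24.5, 37.6 and 33.9% for sham. Grin2c and Grin2d encode GluN2C and GluN2D, subunits typical of the cerebellum, thalamus and interneurons, and ranged from 3.74 to 8.89 and from 2.27 to 4.30 RPKM. Grin2d was lower in every ICH mouse than in every sham mouse (log2 fold change -0.39, standard error 0.17, unadjusted p = 0.0530, adjusted p = 0.408), and it was the only one of the 36 members tested whose ICH values lay wholly lower, beside 6.22% of all genes. The share of Grin2c in the NMDA sum was 8.23, 7.52 and 8.87% for sham and 6.46, 3.03 and 6.30% for ICH. ICH mouse 2 held the lowest value of both genes and also the lowest sum of thalamic markers, 189, 84.1 and 326 for ICH against 289, 279 and 423 for sham, whose part was not tested.

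The GluN3 subunits bind glycine and not glutamate. Grin3a, encoding GluN3A, ranged from 3.21 to 4.56 RPKM. Grin3b, encoding GluN3B, was the least abundant NMDA gene, with RPKM 0.709, 0.859 and 0.680 for sham, 1.13, 0.738 and 0.765 for ICH and 0.619, 0.673 and 0.645 for feb, from 49 to 91 reads a library. The feb values of Grin3b lay wholly under both other groups, and the fit gave -0.37 against ICH (unadjusted p = 0.103) and -0.18 against sham (unadjusted p = 0.390). Exons of Tmem259 on the other strand cover 32.1% of the exon bases of Grin3b, and Tmem259 had the higher mean level of the pair, so reads of the pair may not be told apart. The delta receptor gene Grid1, which encodes a synapse organizer, had RPKM 8.21, 11.5 and 10.3 for sham, 10.2, 8.95 and 10.1 for ICH and 10.3, 10.3 and 10.3 for feb. Its group means were 9.98 ± 1.65, 9.72 ± 0.669 and 10.3 ± 0.0225 (SD, n = 3). Although the feb values lay wholly above the ICH values, the difference was 0.08 on the log2 scale, and 7.04% of all genes lay wholly higher in feb mice.

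**Figure D4:**
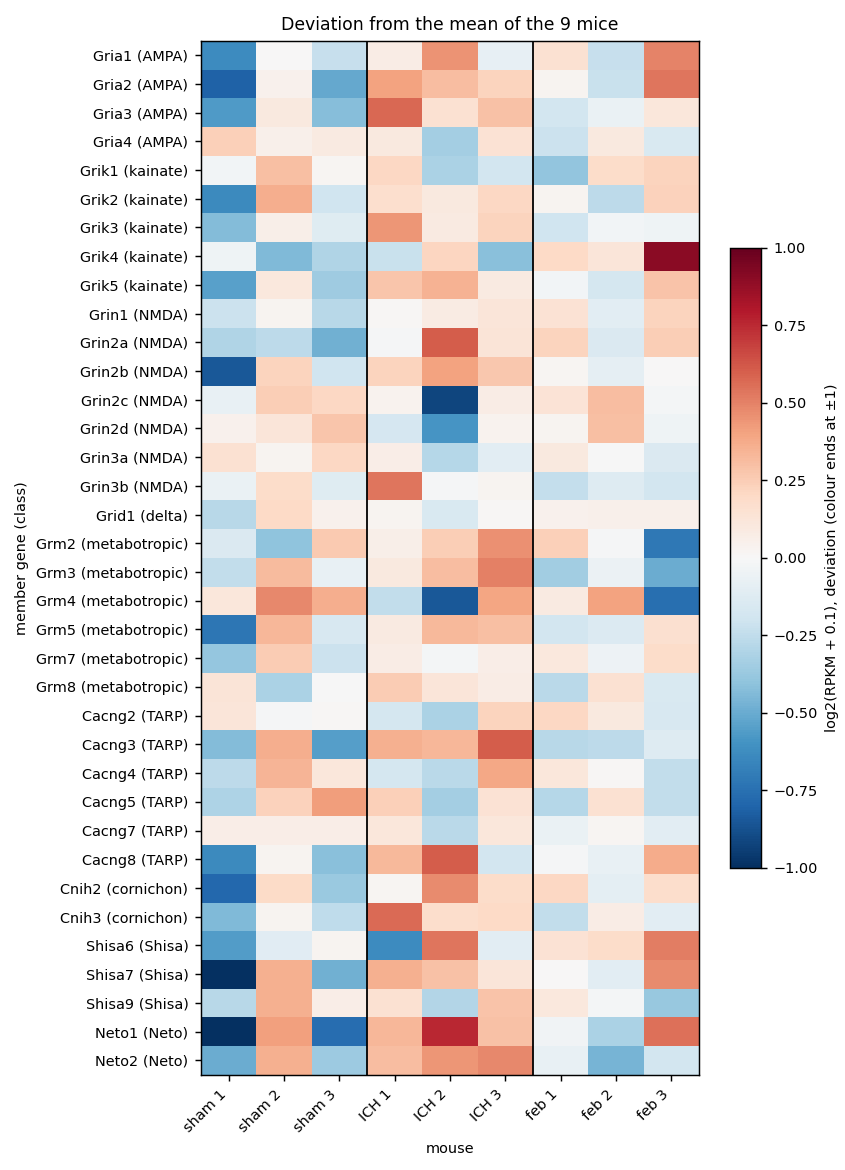
Deviation of each of the 36 members tested (rows, with their class) from its mean over the 9 mice (columns) on the log2(RPKM + 0.1) scale, with red above and blue below the mean and the colour scale ending at ±1. Sham mouse 1 is blue for most channel subunits and their partners, and sham mouse 2 has the highest value of its group in 27 of the 37 members.

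The metabotropic receptors summed to 54.3, 84.6 and 65.8 for sham, 71.8, 76.3 and 86.6 for ICH and 63.0, 68.2 and 62.9 for feb. None of the 6 tested had an unadjusted p under 0.05 in ICH against sham. Grm3 encodes mGlu3, a receptor of astrocytes and neurons that is coupled to inhibitory G proteins and lies on chromosome 5, 9485541 to 9725170, minus strand. By the mean over all 9 mice it was the most abundant of the class, although Grm5 had the higher mean in the feb group. Its RPKM was 18.7, 27.7 and 21.0 for sham, 23.7, 27.4 and 31.5 for ICH and 17.4, 21.3 and 15.7 for feb. The feb values lay wholly under the ICH values (log2 fold change -0.60, standard error 0.17, unadjusted p = 0.00787, adjusted p = 0.309), 1.52-fold lower, while ICH and sham overlapped (0.30, unadjusted p = 0.118). Grm3 took 27.6, 31.3 and 24.9% of the metabotropic sum in the feb mice, less than in any ICH mouse (33.0, 35.9 and 36.3%) or sham mouse (34.4, 32.7 and 31.9%). The 10 astrocyte markers summed to 669, 1066 and 600.3 for ICH and 723, 531 and 669 for feb. These sums overlapped, with 2 astrocyte markers higher and 1 lower at an unadjusted p under 0.05.

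Grm2, encoding the presynaptic receptor mGlu2, ranged from 0.815 to 1.97 RPKM, and Grm5, encoding mGlu5, the Gq-coupled receptor of striatal and cortical neurons, from 12.5 to 26.0 RPKM. Neither parted the groups. Grm4, Grm7 and Grm8 encode presynaptic receptors that lower transmitter release, and they ranged from 3.98 to 10.1, from 11.4 to 17.8 and from 1.91 to 2.90 RPKM. Grm4 had the lowest log2 fold change of any member in ICH against sham, -0.55 with a standard error of 0.35 (unadjusted p = 0.155), and its share of the metabotropic sum was lower in every ICH mouse (8.49, 5.21 and 10.98%) than in every sham mouse (14.4, 11.98 and 14.2%). Grm6, the receptor of retinal ON bipolar cells, was at the limit of detection, with RPKM 0.0187, 0 and 0.00656 for sham, 0, 0.0140 and 0.00704 for ICH and 0.0139, 0 and 0.00800 for feb. Its 0 to 3 reads a library kept it out of the tests.

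**Figure D5:**
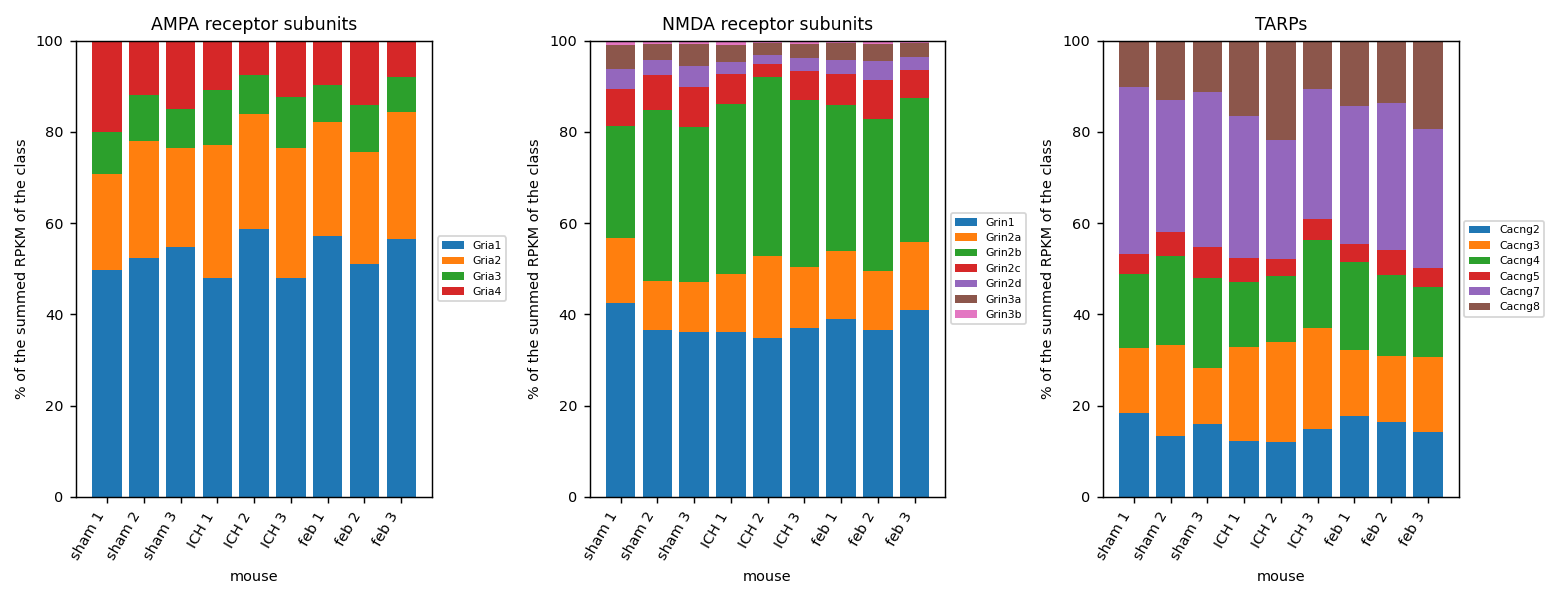
Share of each subunit in the summed RPKM of its class (vertical axis, percent from 0 to 100) in each of the 9 mice (horizontal axis) for AMPA subunits, NMDA subunits and TARPs. Gria1 holds 48.1% to 58.6% of the AMPA sum in all mice, and the Cacng3 share is larger in the 3 ICH mice than in the sham and feb mice.

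The 6 TARPs, transmembrane proteins that bind AMPA receptors and anchor them at the postsynaptic density, summed to 59.7, 75.0 and 63.8 for sham, 72.3, 66.6 and 79.2 for ICH and 65.7, 65.9 and 63.8 for feb. The sham sums overlapped both other groups, and the feb sums lay just under the ICH sums. Cacng7 was the most abundant TARP gene, with RPKM 21.8, 21.8 and 21.8 for sham, 22.5, 17.3 and 22.6 for ICH and 19.9, 21.2 and 19.4 for feb. The 3 sham values were nearly equal, and the feb values lay wholly under them (log2 fold change -0.11, unadjusted p = 0.316). Cacng5, the least abundant, had RPKM 2.59, 3.81 and 4.34 for sham, 3.84, 2.53 and 3.58 for ICH and 2.64, 3.61 and 2.70 for feb and overlapped throughout. Cacng2, encoding stargazin, ranged from 8.09 to 11.8 RPKM, and Cacng4 from 9.62 to 15.3 RPKM. Cacng3 and Cacng8 were the 2 of the 6 with an unadjusted p under 0.05 in ICH against sham.

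Cacng3, whose product γ3 is most abundant in cerebral cortex, had RPKM 8.50, 14.9 and 7.84 for sham, 14.8, 14.6 and 17.6 for ICH and 9.48, 9.59 and 10.5 for feb. Sham mouse 2, at 14.9 RPKM, lay within the ICH range and the other sham mice lay well under it. The fit gave a log2 fold change of 0.64, standard error 0.22, unadjusted p = 0.0173, adjusted p = 0.357 for ICH over sham, a 1.56-fold difference. For feb against ICH it gave a log2 fold change of -0.66, standard error 0.22, unadjusted p = 0.0152, adjusted p = 0.356, and these groups did not overlap. With 1 mouse left out, the ICH value against sham went from 0.47 (without sham mouse 3) to 0.93 (without sham mouse 2, adjusted p = 0.0326), and the unadjusted p was over 0.05 without sham mouse 1 (0.52, unadjusted p = 0.0623 by limma), sham mouse 3 or ICH mouse 3. The Cacng3 share of the TARP sum was 20.5, 21.8 and 22.2% for ICH, 14.2, 19.9 and 12.3% for sham, and 14.4, 14.5 and 16.5% for feb. Of the 10 cortical excitatory neuron markers, 7 were called higher in ICH against sham and 3 called lower in feb against ICH, and their part was not tested. Cacng8, encoding the TARP γ8 that is best known from hippocampus, had RPKM 6.11, 9.69 and 7.12 for sham, 11.9, 14.5 and 8.35 for ICH and 9.44, 9.04 and 12.4 for feb. ICH mouse 3 lay within the sham range (log2 fold change 0.59, standard error 0.24, unadjusted p = 0.0354, adjusted p = 0.389). The 10 hippocampal markers summed to 198, 236 and 135 for sham, 263, 454 and 431 for ICH and 264, 203 and 304 for feb, and 1 of them, Nrgn, was called in ICH against sham. Nrgn, a calmodulin-binding gene of forebrain neurons, made up 164, 167 and 82.3 of the sham sums and 224, 379.7 and 378 of the ICH sums, and the other 9 markers, at 33.3, 68.8 and 52.6 for sham and 39.5, 74.0 and 52.7 for ICH, overlapped.

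Cornichons bring AMPA receptors out of the endoplasmic reticulum and slow their closing. Cnih2 had RPKM 9.47, 18.7 and 12.7 for sham, 16.6, 22.8 and 18.7 for ICH and 18.9, 15.3 and 18.5 for feb. Sham mouse 2 reached the level of ICH mouse 3 in this gene (log2 fold change 0.55, standard error 0.23, unadjusted p = 0.0413, adjusted p = 0.394), and without sham mouse 1 the value was 0.32 (unadjusted p = 0.146). Cnih3, on chromosome 1, 181352628 to 181460641, plus strand, had RPKM 4.20, 5.87 and 4.81 for sham, 8.54, 6.48 and 6.59 for ICH and 4.83, 6.06 and 5.34 for feb. The ICH values of Cnih3 lay above both other groups without overlap. The fit gave a log2 fold change of 0.53, standard error 0.16, unadjusted p = 0.00934, adjusted p = 0.345 for ICH over sham, and a log2 fold change of -0.40, standard error 0.16, unadjusted p = 0.0344, adjusted p = 0.416 for feb against ICH. The 2 comparisons share the ICH mice, and ICH mouse 1 was the highest of them.

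Shisa proteins shape the desensitization of AMPA receptors. Shisa9 was the most abundant of the 3 genes, with RPKM 11.4, 17.8 and 14.6 for sham, 15.5, 11.3 and 16.9 for ICH and 14.9, 13.7 and 10.6 for feb, and overlapped in all comparisons. Shisa6 had RPKM 3.02, 4.17 and 4.59 for sham, 2.88, 6.58 and 4.18 for ICH and 5.01, 5.12 and 6.48 for feb, and its feb values lay above its sham values without overlap (log2 fold change 0.50, standard error 0.28, unadjusted p = 0.114, adjusted p = 0.644). Shisa7 ranged from 4.47 to 12.8 RPKM. It had the value 0.64 for ICH over sham (unadjusted p = 0.0707), which was 1.01 without sham mouse 2 and 0.32 without sham mouse 1 (unadjusted p = 0.256).

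Neto1 and Neto2 encode partners of kainate receptors, and Neto1 also binds NMDA receptors. Neto1 had RPKM 5.86, 18.6 and 8.19 for sham, 17.6, 23.6 and 17.1 for ICH and 13.6, 11.2 and 20.4 for feb. It had the highest log2 fold change of any member in ICH against sham (log2 fold change 0.99, standard error 0.39, unadjusted p = 0.0351, adjusted p = 0.388), a 1.98-fold difference just under the fold criterion. Sham mouse 2 lay within the ICH range. Without it Neto1 was called, at 1.46 on the log2 scale, whereas without sham mouse 1 the value was 0.63 (unadjusted p = 0.127). The p was also 0.05 or more without sham mouse 3 or any 1 of the ICH mice. The striatal markers, which were also highest in sham mouse 2, had 0 of 10 genes at p under 0.05 in this comparison, and their part was not tested. The other gene of the pair, Neto2, spans chromosome 8, 85636588 to 85700924, minus strand, and had RPKM 3.26, 5.96 and 3.58 for sham, 5.76, 6.33 and 6.52 for ICH and 4.40, 3.33 and 4.06 for feb. Its sham and ICH ranges overlapped through sham mouse 2 (log2 fold change 0.58, standard error 0.21, unadjusted p = 0.0258, adjusted p = 0.381). Its feb values lay wholly under its ICH values (log2 fold change -0.65, standard error 0.21, unadjusted p = 0.0147, adjusted p = 0.353), a 1.57-fold difference.

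Genes that carry glutamate around these receptors, or act beside them, were taken from 3 further lists. Over all genes tested, 7.88% were higher and 4.42% lower in ICH than in sham mice at an unadjusted p under 0.05, and 2.53% were called. The share lower in feb than in ICH mice was 6.16%, and the share higher in feb than in sham mice was 5.63%. Of 7 transporter genes, 2 were higher in ICH than in sham mice at an unadjusted p under 0.05 and 0 lower, 1 was lower in feb than in ICH mice, and 1 was higher in feb than in sham mice. The largest difference was that of Slc17a7, the vesicular transporter VGLUT1 of cortical and hippocampal neurons, with RPKM 18.5, 17.9 and 11.9 for sham, 45.2, 66.2 and 32.6 for ICH and 19.0, 30.2 and 30.7 for feb. Slc17a7 was called in ICH against sham (log2 fold change 1.54, standard error 0.29, unadjusted p = 6.43e-04, adjusted p = 0.277) and is itself one of the cortical neuron markers. Slc17a6, the thalamic transporter VGLUT2, had RPKM 46.2, 28.8 and 49.5 for sham, 18.9, 10.3 and 35.9 for ICH and 46.3, 36.1 and 18.7 for feb, with overlap. Slc1a2, the main astrocytic uptake carrier, was higher in each ICH mouse than in any sham mouse (log2 fold change 0.27, standard error 0.10, unadjusted p = 0.0288, adjusted p = 0.382).

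Of 20 genes of the postsynaptic scaffold, 9 were higher in ICH than in sham mice and 0 lower, 3 (Dlg1, Homer1 and Shank1) were lower in feb than in ICH mice and 0 higher, and 3 were higher in feb than in sham mice, all at an unadjusted p under 0.05 and none called. The median log2 fold change of this list was 0.34 in ICH against sham, and that of all genes was 0.08. The shares over all genes given before the transporters stand beside these counts and those of the next list too. Homer1, a scaffold that ties metabotropic receptors to internal calcium stores, had RPKM 6.33, 12.2 and 6.67 for sham, 12.4, 13.4 and 14.6 for ICH and 9.19, 8.32 and 8.33 for feb. Sham mouse 2 again lay apart from sham mice 1 and 3 in this gene (log2 fold change 0.74, standard error 0.22, unadjusted p = 0.00945, adjusted p = 0.346). Of 15 further AMPA receptor partners, 6 were higher and 1 (Olfm3) lower in ICH than in sham mice, and Nptx1, a secreted pentraxin that clusters AMPA receptors, was called (log2 fold change 1.05, standard error 0.36, unadjusted p = 0.0192, adjusted p = 0.362). In feb against ICH mice 3 of the 15 were lower (Frrs1l, Olfm1 and Olfm2), and in feb against sham mice 3 were higher. Olfm1, a secreted olfactomedin found in native AMPA receptor complexes, had the lowest p of these lists, with RPKM 69.4, 73.6 and 68.1 for sham, 119, 141 and 109.9 for ICH and 86.3, 82.6 and 89.1 for feb. Its 3 sham mice lay together, well under the ICH mice, and sham mouse 2 did not stand apart (log2 fold change 0.80, standard error 0.10, unadjusted p = 2.24e-05, adjusted p = 0.0576). The feb mice of Olfm1 lay between the other groups without overlap with either.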

How the data were processed

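RNA of 9 mouse brains, 3 each in the sham, ICH and feb groups, was sequenced after ribosomal RNA depletion with a stranded, UMI-tagged kit. The authors trimmed reads (Trimmomatic 0.36), built UMI consensus reads, aligned them to GRCm38, counted them on exons with featureCounts (Subread 1.5.1) and deposited RPKM values per mouse with exon lengths. The annotation release and the strand setting are not given in the sources used here. RPKM times exon length gave whole reads for 100% of values within 0.1 read, 23065757 to 29538009 reads a library.

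A single limma fit (version 3.58.1 under R 4.3.3, moderated variances following a trend) was made to log2(RPKM + 0.1) of all 9 samples. It covered 29025 genes that reached 0.1 RPKM in 3 or more samples, and p-values were Benjamini-Hochberg adjusted over these genes. Fold changes of genes near 0.1 RPKM are understated on this scale. The main fit was made on the RPKM as deposited and not with a count test. As an alternative, voom was run on the whole reads, along with other pseudocounts, filters, scalings, fits and left-out mice. The fit was tested on simulated data. The result of 1 further gene list is not reported here. Every member with an unadjusted p under 0.05 in a comparison, with groups that did not overlap in 2 comparisons, or with the highest or lowest mean of its class is given with each mouse's value. The genes named from other lists, and the shares and ratios, were chosen after their values were seen. The members and lists were chosen with earlier results of these data known. Promoters are from RefSeq (GRCm38.p6).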

Additional observations from a re-analysis of the deposited data

How the results depend on the processing

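Of the log2 fold changes of the 14 members with an unadjusted p under 0.05 in any comparison, recomputed under 10 other settings and without each mouse in turn, 697 kept their direction and side of 0.05, 65 lost p under 0.05, 25 gained it and 11 changed sign. All 3 comparisons of each gene are counted here. Only 12 members in ICH against sham, 5 in feb against ICH and 2 in feb against sham had p under 0.05 to lose. The rest count as kept where p stayed at 0.05 or more, so the 697 do not measure how stable the differences were. Gria3, Grin2a and Cnih3 in ICH against sham, and Grm3 in feb against ICH, kept p under 0.05 in all 10 settings and all 9 leave-outs. In ICH against sham, the number of members called was 1 with voom and 0 to 2 with a mouse left out, where Neto1 and Shisa7 were called without sham mouse 2. Without that mouse, 847 of all genes were called higher and 452 lower. The number of members at p under 0.05 went from 3 to 19, and the member median from 0.19 to 0.33. In feb against ICH, the number called stayed at 0 with a mouse left out, the number at p under 0.05 was 8 with only the 2 groups and 3 to 8 with a mouse left out, and the median went from -0.18 to -0.070 (the latter without feb mouse 2). In feb against sham, 0 to 1 were called with a mouse left out, 1 had p under 0.05 with equal medians and 0 to 14 with a mouse left out, and the median went from -0.07 to 0.22. The counts over all 29025 genes at p under 0.05 moved with a mouse left out too. From 1178 to 3451 were higher in ICH against sham, and 1201 to 1975 were lower in feb against ICH. In feb against sham, 708 to 2587 were higher.

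Of the values that changed sign, 1 had p under 0.05, Cacng3 in feb against sham without sham mouse 2 (0.27, unadjusted p = 0.0404, adjusted p = 0.365 by limma). With equal medians, Grik3 was -0.042 in feb against sham. With a mouse left out, Grik4 in ICH against sham went from -0.058 (without ICH mouse 2) to 0.26. In feb against ICH, Grin2a went from -0.26 to 0.048 and Cacng8 from -0.37 to 0.027, both highest without ICH mouse 2. In feb against sham, Grik3 went from -0.060 to 0.19 and Grin2b from -0.035 to 0.50, both lowest without sham mouse 1, and Cacng3 went from -0.19 to 0.27 and Neto2 from -0.24 to 0.19, both highest without sham mouse 2. Without feb mouse 2, Cacng3 was 0.0021 and Neto2 0.037, and without feb mouse 1 Cacng3 was 0.010. The causes were not tested.

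The groups share replicate numbers, and deviations of samples with the same number correlated at -0.127 to 0.0194 over all genes tested, so the numbers were not taken as pairs. With the replicate block, 12 members had p under 0.05 in ICH against sham, 3 in feb against ICH and 1 in feb against sham. At that p, 1740 of all genes were higher in ICH against sham and 1400 lower in feb against ICH. In feb against sham, 1271 were higher. Adjusted p stayed over 0.05 for every member in every setting but Cacng3 in ICH against sham without sham mouse 2.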
